A study of Mus musculus with 20 samples.

Results

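Genes of the unfolded protein response and the integrated stress response were followed in mouse liver after bile duct ligation, with and without STING. The members are the 10 genes Hspa5, Dnajb9, Herpud1, Xbp1, Atf4, Ddit3, Atf3, Trib3, Chac1 and Asns, found by gene name among the 54532 entries of the table of FPKM values (fragments scaled to exon length in kilobases and to library size). Ddit3 was listed in 2 rows, so 11 rows carried a member name, and all 10 genes were tested. The study sequenced polyadenylated RNA from whole liver in 20 libraries, 5 in each of 4 groups. STING knockout mice (BDL_KO) and wild-type mice (BDL_Wt) had their bile duct ligated for 7 days, and the controls were sham-operated STING knockout mice (Sham_KO) and sham-operated wild-type mice (Sham_Wt). Ligation stops the outflow of bile and so causes cholestasis, and STING is the adaptor that links sensing of cytosolic DNA to interferon genes. The labels give neither strain, sex, age nor the kind of knockout allele. Gene positions are those of GENCODE M21 on GRCm38. Libraries are named here by group and the number in their title. No label says whether they came from separate animals, so p-values measure the spread between libraries.

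Cells answer misfolded protein in the endoplasmic reticulum (ER) through the sensors IRE1, PERK and ATF6, which together raise chaperones, degradation factors and lipid synthesis. PERK and the related kinases GCN2, PKR and HRI phosphorylate the initiation factor eIF2, which slows protein synthesis overall and lets ATF4 mRNA be translated more, and this shared branch is called the integrated stress response. Hepatocytes make most plasma proteins and carry much ER, and bile acids retained in cholestasis are a known stress on them. Splicing of Xbp1 mRNA and translation of Atf4 mRNA are the regulated steps for these genes, and FPKM per gene measures neither of them.

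The libraries held 14948000 to 20903000 fragments assigned to genes, and a single fragment per kilobase of exon stood for 0.0467 to 0.0734 FPKM. Tmem173, which encodes STING, lay between 0.638 and 2.57 FPKM in BDL_KO and between 2.598 and 4.61 FPKM in BDL_Wt libraries. In the sham groups it lay between 0.588 and 1.06 FPKM in Sham_KO and between 0.843 and 2.34 FPKM in Sham_Wt libraries, with an overlap, and no label tells which exons the knockout allele lacks. Libraries BDL_KO_2248 and BDL_KO_2359 stood apart from the other 3 of their group in hepatocyte, cholangiocyte and macrophage markers, but not in plasma cell markers. Summed FPKM of 9 plasma cell markers was 198 and 137 in these 2 libraries and 158 to 246 in the other 3. The plasma cell sum was 122 to 150 in BDL_Wt, 85.0 to 124 in Sham_KO and 60.0 to 108 in Sham_Wt. Summed FPKM of 12 hepatocyte markers was 64030 and 56870 in these 2 libraries and 34900 to 39550 in the other 3, against 24840 to 36240 in BDL_Wt, 58810 to 78550 in Sham_KO and 54290 to 72220 in Sham_Wt. Summed FPKM of 10 cholangiocyte markers was 63.6 and 83.7 in the 2 and 336 to 573 in the other 3, against 229 to 619 in BDL_Wt, 28.6 to 35.2 in Sham_KO and 20.8 to 27.6 in Sham_Wt. Summed FPKM of 10 macrophage and monocyte markers was 105 and 178 in the 2 and 349 to 519 in the other 3, against 427 to 544 in BDL_Wt, 128 to 206 in Sham_KO and 121 to 197 in Sham_Wt. The hepatocyte sum was the largest in every library, but sums over lists of different genes do not give the shares of cell types. Summed FPKM of 8 pancreatic acinar markers was 1.797 to 3.023 in BDL_KO and 1.641 to 3.22 in BDL_Wt. It was higher after sham surgery, 4.152 to 7.901 in Sham_KO and 5.469 to 10.08 in Sham_Wt. Of these 8 genes, Prss2 and Amy2a5 were listed at 0 in all 20 libraries, and Cpa1, Ctrb1, Pnlip and Try4 averaged near 0. The sum thus rests mostly on Cela1 and Cela2a and does not stand for acinar genes in general. Only 1 of the 8 was tested, and it was called lower with ligation in wild type (-1.74 log2 units) and in knockout (-1.38). Because BDL_KO_2248 and BDL_KO_2359 stood apart, many results that rest on BDL_KO also carry values without them. In whole liver, fewer cells of a type and less RNA per cell cannot be told apart.

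Of the 10 genes, on the deposited FPKM scale, only Atf3 and Asns passed the test for ligation in either genotype, and only Atf3 for the genotype after ligation. Levels over all 20 libraries, which are FPKM and thus per length, averaged 211 for Hspa5, 126 for Herpud1, 85.5 for Xbp1, 39.7 for Atf4 and 24.2 for Dnajb9. The other 5 genes averaged 3.68 for Atf3, 3.54 for Ddit3, 3.34 for Trib3, 2.76 for Chac1 and 1.82 for Asns. Of these low genes, Asns, Chac1 and Atf3 had the widest ranges between the lowest and highest library, 97.5-fold, 51.1-fold and 36.3-fold. The other 7 genes ranged 2.74-fold to 4.14-fold, among them the low genes Ddit3 (3.27-fold) and Trib3 (3.59-fold). Differences below are of mean log2(FPKM + 0.5) ± standard error, tested with limma over 14059 genes with Benjamini-Hochberg adjustment and a threshold of 0.05. This scale understates changes of low genes.

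**Figure D1:**
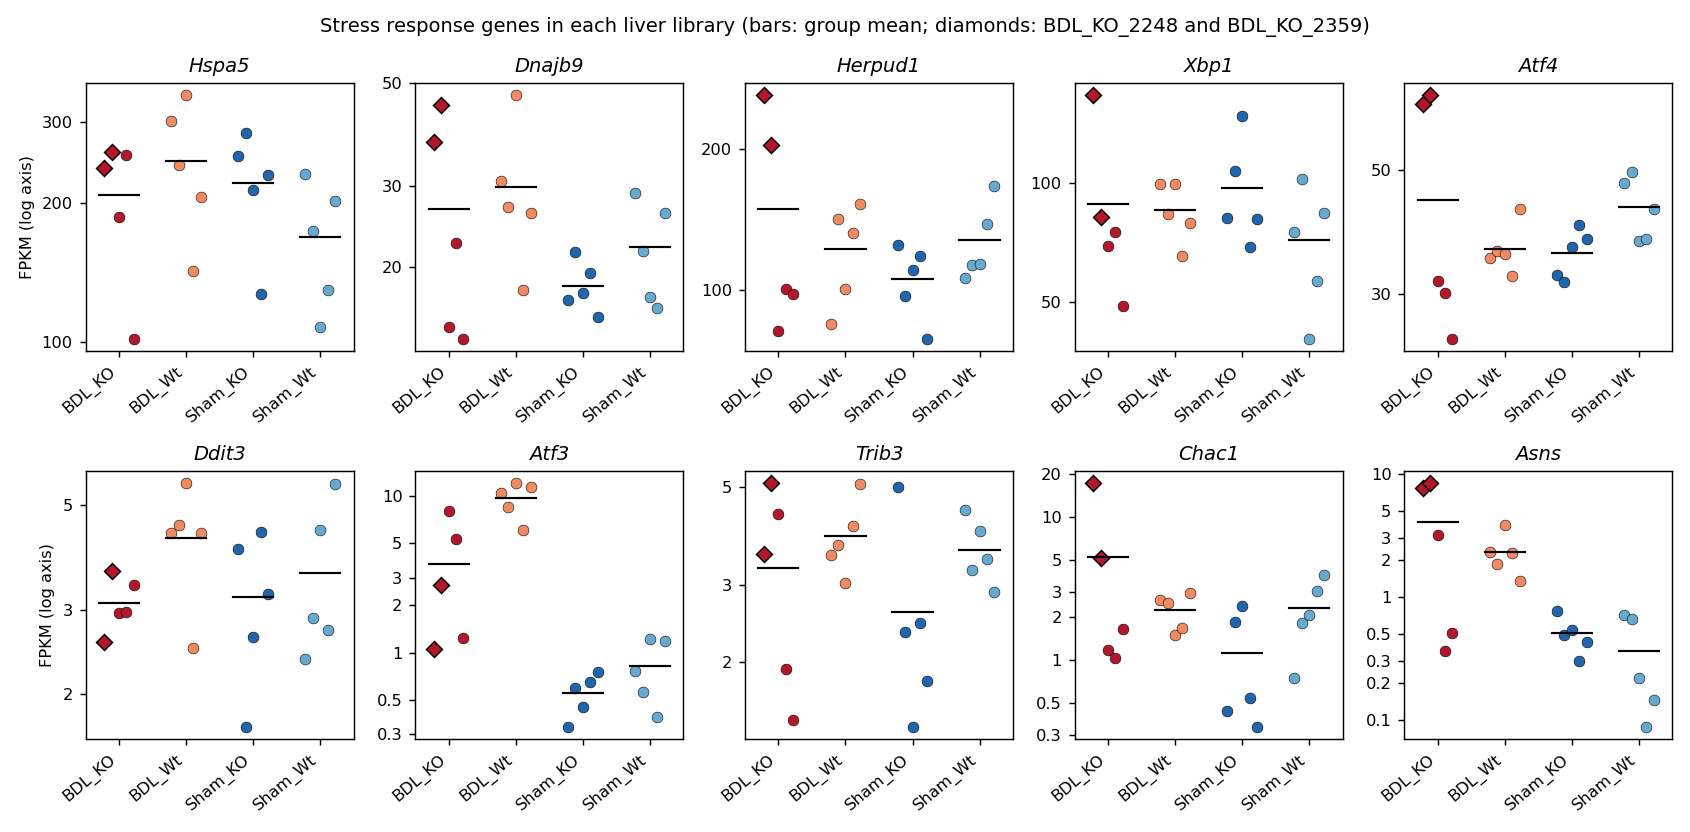
FPKM on a log axis (vertical) of the 10 genes in each library, with the 4 groups along the horizontal axis, points for libraries, bars for group means and diamonds for BDL_KO_2248 and BDL_KO_2359. Atf3 lies between 6.01 and 12.1 FPKM in BDL_Wt and between 1.06 and 7.98 FPKM in BDL_KO, above all sham libraries, which end at 1.22 FPKM, except for BDL_KO_2248.

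The transcription factors of the pathway come first. Atf3, a stress-induced bZIP factor that acts downstream of ATF4 and of several inflammatory signals, rose with ligation in both genotypes and was lower in ligated knockout than in ligated wild-type livers. It measured 7.98 (BDL_KO_2365), 5.34 (BDL_KO_2370), 2.69 (BDL_KO_2359), 1.23 (BDL_KO_2371) and 1.06 FPKM (BDL_KO_2248) in ligated knockout livers. In ligated wild-type livers it measured 12.1, 11.4, 10.4, 8.51 and 6.01 FPKM. The sham values were 0.751, 0.649, 0.594, 0.449 and 0.334 FPKM in Sham_KO and 1.22, 1.18, 0.758, 0.559 and 0.388 FPKM in Sham_Wt. Every ligated library lay above every sham library of its own genotype, while the ligated groups overlapped, since BDL_KO_2365 was above the lowest BDL_Wt library.

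In knockout livers Atf3 averaged 3.66 ± 2.96 FPKM in BDL_KO and 0.556 ± 0.165 FPKM in Sham_KO (SD, n = 5 each), a difference of 1.68 ± 0.36 log2 units (limma adjusted p = 0.00267). In wild type it averaged 9.69 ± 2.47 FPKM in BDL_Wt and 0.821 ± 0.370 FPKM in Sham_Wt (SD, n = 5 each), a difference of 2.96 ± 0.36 log2 units (limma adjusted p = 8.51e-06). Both calls held under all 33 other settings tried. BDL_KO minus BDL_Wt came to -1.56 ± 0.36 log2 units (limma adjusted p = 0.0118), a ratio of mean FPKM of 0.378. That call was lost without BDL_KO_2248 and BDL_KO_2359 (-1.17, limma adjusted p = 0.0766) and with only the 2 groups compared in the fit (limma adjusted p = 0.101). The difference between the ligation effects, knockout minus wild type, was -1.27 ± 0.51 log2 units and was not called (limma adjusted p = 0.295, unadjusted p = 0.0229). Without BDL_KO_2248 and BDL_KO_2359 it was -0.88 ± 0.50 log2 units (limma adjusted p = 0.438). The ligation effect in knockout was then 2.08 ± 0.38 log2 units (limma adjusted p = 0.00048). In the order of Atf3 levels the groups stood as BDL_Wt, BDL_KO, Sham_Wt and Sham_KO, and the difference between the sham groups, -0.29 ± 0.36 log2 units for Sham_KO minus Sham_Wt, was within their spread (limma adjusted p = 0.734). Among ligated livers, macrophage marker sums were lowest in BDL_KO_2248 (105) and BDL_KO_2359 (178), where Atf3 measured 1.06 and 2.69 FPKM. The next lowest sum among ligated livers, 349, was that of BDL_KO_2371, with 1.23 FPKM of Atf3. BDL_Wt sums were 427 to 544. The orders were not the same throughout, since BDL_KO_2359 had more Atf3 than BDL_KO_2371 at a lower sum. The part of cell types in the Atf3 difference was not tested.

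The Atf3 promoter is shown because this gene gave the largest called difference among the 10. The start of transcription that RefSeq gives lies within the longer gene that GENCODE M21 places on the minus strand of chromosome 1 at 191170296 to 191218039. The 250 bases upstream (chr1:191183334-191183583, minus strand, RefSeq, GRCm38.p6) are written 5′ to 3′, and capitals mark a C/EBP-ATF element (TGATGNAA on either strand) 110 bases upstream of the start.
Atf3: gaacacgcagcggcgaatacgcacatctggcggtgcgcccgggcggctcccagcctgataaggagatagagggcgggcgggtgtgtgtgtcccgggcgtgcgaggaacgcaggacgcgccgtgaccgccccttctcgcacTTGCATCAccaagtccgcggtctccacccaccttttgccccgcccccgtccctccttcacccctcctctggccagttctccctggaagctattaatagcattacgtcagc
This element, a composite site known to bind ATF4 with C/EBP factors, was found in 3.97% of 32851 RefSeq promoter windows of 300 bases (250 upstream and 50 downstream of a start).

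Atf4 (chromosome 15, 80255184 to 80257541, plus strand), the central factor of the integrated stress response, was high in 2 libraries. It lay between 24.9 and 49.6 FPKM in the other 18. It measured 68.3 (BDL_KO_2359), 65.8 (BDL_KO_2248), 31.7, 30.1 and 24.9 FPKM in BDL_KO livers. BDL_Wt livers had 32.3 to 42.6 FPKM, Sham_KO livers 31.5 to 39.9 FPKM and Sham_Wt livers 37.4 to 49.6 FPKM. The 2 high values exceeded all other 18 libraries, and the remaining 3 BDL_KO libraries lay below every BDL_Wt library. BDL_KO minus Sham_KO was 0.19 ± 0.22 log2 units (95% interval -0.27 to 0.64, limma adjusted p = 0.569), and -0.30 ± 0.12 without the 2 libraries (limma adjusted p = 0.0633). BDL_Wt minus Sham_Wt was -0.24 ± 0.22 log2 units (95% interval -0.70 to 0.22, limma adjusted p = 0.422). In the fit without the 2 libraries, which share in the estimate of spread, it was -0.24 ± 0.10 (limma adjusted p = 0.0726).

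Xbp1 (chromosome 11, 5520659 to 5525893, plus strand), the transcript that IRE1 splices to yield an active factor, overlapped between all groups. Its values ran from 48.8 to 167 FPKM in BDL_KO, from 65.4 to 99.0 FPKM in BDL_Wt, from 68.6 to 147 FPKM in Sham_KO and from 40.2 to 102 FPKM in Sham_Wt. The highest of all was BDL_KO_2248. The ligation effect was -0.21 ± 0.29 log2 units in knockout (95% interval -0.81 to 0.40, limma adjusted p = 0.639; -0.56 ± 0.27 without BDL_KO_2248 and BDL_KO_2359, limma adjusted p = 0.122) and 0.30 ± 0.29 in wild type (95% interval -0.30 to 0.90, limma adjusted p = 0.447).

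Ddit3, which encodes the pro-apoptotic factor CHOP, showed no called difference. It lay between 2.57 and 3.62 FPKM in BDL_KO, 2.50 and 5.56 FPKM in BDL_Wt, 1.70 and 4.38 FPKM in Sham_KO and 2.36 and 5.54 FPKM in Sham_Wt. All groups overlapped, and BDL_KO minus BDL_Wt was -0.37 ± 0.23 log2 units (95% interval -0.85 to 0.10, limma adjusted p = 0.336). With the exonic length of the main Ddit3 locus (1713 bases, chromosome 10, 127290774 to 127296288 on the plus strand), the used row came to a whole number of fragments, within 0.05, in 20 of 20 libraries. The second row, an overlapping locus of 105 exonic bases, was listed at 0 in every library. Its exon and those of the antisense genes Mars and Gm4189 share 186 bases with Ddit3, and no source used here says whether fragments were counted by strand.

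**Figure D2:**
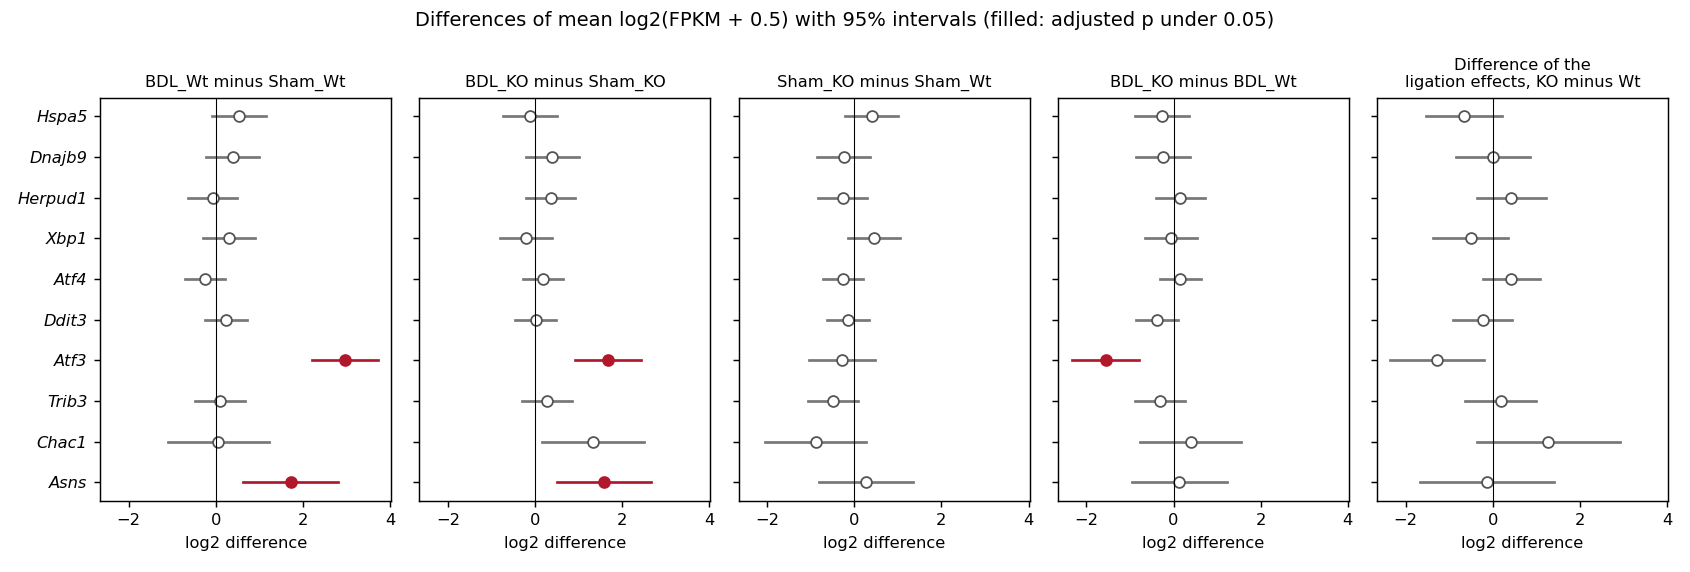
Differences of mean log2(FPKM + 0.5) (horizontal axis) with 95% intervals for the 10 genes (rows) in the 4 pairwise comparisons and the difference of the ligation effects. Filled symbols mark limma adjusted p under 0.05, which only Atf3 (2.96, 1.68 and -1.56) and Asns (1.72 and 1.58) reached.

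The genes that act in the ER itself were the most abundant. Hspa5 (chromosome 2, 34771970 to 34777547, plus strand) encodes BiP, the main ER chaperone, which also holds the sensors inactive. It measured 259, 255, 239, 187 and 101 FPKM in BDL_KO livers and 344, 302, 242, 206 and 142 FPKM in BDL_Wt livers. In the sham groups it measured 285, 253, 229.9, 213 and 127 FPKM in Sham_KO and 232, 202, 174, 129 and 108 FPKM in Sham_Wt. All 4 groups overlapped, with the 2 highest values in BDL_Wt. BDL_Wt minus Sham_Wt was 0.54 ± 0.30 log2 units (95% interval -0.08 to 1.16, limma adjusted p = 0.168). It was called under 4 of 33 other settings, with TPM (each library rescaled to the same sum of values, 0.86), quantile normalization (0.91), scaling to total fragments (0.73) and array weights (0.77), where TPM and scaling to total fragments also moved the median of all genes by 0.29 and 0.16. BDL_KO minus Sham_KO was -0.12 ± 0.30 log2 units (95% interval -0.74 to 0.50, limma adjusted p = 0.809), and the difference of these effects was -0.66 ± 0.42 log2 units (limma adjusted p = 0.57). Without BDL_KO_2248 and BDL_KO_2359 these were -0.34 ± 0.34 and -0.88 ± 0.45 log2 units (limma adjusted p = 0.463 and 0.377).

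Dnajb9 (chromosome 12, 44205559 to 44210326, minus strand) encodes the BiP co-chaperone ERdj4 and is a target of XBP1. It measured 44.8 (BDL_KO_2359), 37.3 (BDL_KO_2248), 22.5, 14.8 and 13.9 FPKM in BDL_KO livers. It lay between 17.8 and 47.2 FPKM in BDL_Wt, 15.6 and 21.6 FPKM in Sham_KO and 16.3 and 28.9 FPKM in Sham_Wt. BDL_KO held values both above and below the whole Sham_KO range. The ligation effect was 0.39 ± 0.29 log2 units in knockout (limma adjusted p = 0.341) and 0.39 ± 0.29 in wild type (limma adjusted p = 0.322). Without BDL_KO_2248 and BDL_KO_2359 the knockout effect was -0.11 ± 0.25 log2 units (limma adjusted p = 0.758).

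Herpud1 (chromosome 8, 94386438 to 94395377, plus strand) encodes a membrane protein that recruits the ER-associated degradation machinery. It measured 261 (BDL_KO_2248), 204 (BDL_KO_2359), 101, 97.9 and 81.9 FPKM in BDL_KO livers. The other groups lay between 84.8 and 152 FPKM in BDL_Wt, 78.6 and 125 FPKM in Sham_KO and 106 and 167 FPKM in Sham_Wt. Here too the 2 libraries exceeded all other 18. The ligation effect in knockout was 0.36 ± 0.27 log2 units (95% interval -0.21 to 0.92, limma adjusted p = 0.354), but -0.16 ± 0.20 without the 2 libraries (limma adjusted p = 0.55), and in wild type it was -0.07 ± 0.27 (95% interval -0.64 to 0.49, limma adjusted p = 0.86).

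The Hspa5 and Herpud1 promoters are shown because they carry ER stress elements, the sites through which ATF6 with NF-Y is known to act. They are the 250 bases upstream of the RefSeq start (chr2:34771840-34772089 and chr8:94386179-94386428, both plus strand, RefSeq, GRCm38.p6), written 5′ to 3′. Capitals mark in Hspa5 an ERSE (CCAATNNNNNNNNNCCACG) 65 bases upstream. In Herpud1 they mark a C/EBP-ATF element 112 bases upstream and then an ERSE-II (ATTGGNCCACG) 52 bases upstream.
Hspa5: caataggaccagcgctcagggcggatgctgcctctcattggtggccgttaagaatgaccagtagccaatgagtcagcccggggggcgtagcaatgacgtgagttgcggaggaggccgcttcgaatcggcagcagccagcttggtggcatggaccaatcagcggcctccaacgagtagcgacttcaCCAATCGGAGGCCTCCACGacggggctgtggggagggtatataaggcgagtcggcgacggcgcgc
Herpud1: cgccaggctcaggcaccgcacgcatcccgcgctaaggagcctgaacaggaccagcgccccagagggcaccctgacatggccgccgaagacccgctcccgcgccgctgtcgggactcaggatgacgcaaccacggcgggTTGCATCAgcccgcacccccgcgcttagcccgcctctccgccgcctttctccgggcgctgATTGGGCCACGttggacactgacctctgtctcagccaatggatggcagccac
On either strand, ERSE was found in 0.119% and ERSE-II in 0.0365% of the 32851 windows. UPRE (TGACGTGG) was found in 0.676% and CRE (TGACGTCA) in 1.79% of them, and in none of the 10 genes. In Ddit3, Atf4, Xbp1 and Dnajb9 none of these 5 motifs was found, which says only that the letters are not in these windows.

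Among targets of ATF4 and CHOP, Asns rose in wild type and split the ligated knockout group. Asns (chromosome 6, 7675169 to 7693254, minus strand) encodes asparagine synthetase, which makes asparagine from aspartate and glutamine. It measured 8.51 (BDL_KO_2359), 7.76 (BDL_KO_2248), 3.17 (BDL_KO_2365), 0.505 (BDL_KO_2371) and 0.360 FPKM (BDL_KO_2370) in ligated knockout livers. In ligated wild-type livers it measured 3.83, 2.32, 2.28, 1.86 and 1.35 FPKM. The sham values were 0.764, 0.542, 0.493, 0.432 and 0.302 FPKM in Sham_KO and 0.716, 0.661, 0.218, 0.146 and 0.0873 FPKM in Sham_Wt. All BDL_Wt libraries lay above all sham libraries, whereas 3 BDL_KO libraries lay above and 2 within the Sham_KO range.

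Asns averaged 2.33 ± 0.923 FPKM in BDL_Wt and 0.366 ± 0.299 FPKM in Sham_Wt (SD, n = 5 each), a difference of 1.72 ± 0.52 log2 units (limma adjusted p = 0.0141) that was called under all 33 other settings. It averaged 4.06 ± 3.89 FPKM in BDL_KO and 0.507 ± 0.170 FPKM in Sham_KO (SD, n = 5 each), a difference of 1.58 ± 0.52 log2 units (limma adjusted p = 0.0319). The knockout call was lost under 13 of the 33 settings. Among them were voom on recovered fragments (limma adjusted p = 0.151) and leaving out both BDL_KO_2248 and BDL_KO_2359 (0.56, limma adjusted p = 0.278). It was also lost when BDL_KO_2248, BDL_KO_2359, BDL_KO_2365, Sham_KO_2349, Sham_KO_2350, Sham_KO_2352 or Sham_KO_2353 alone was left out, with limma adjusted p between 0.0514 and 0.0774. The effects of ligation differed by -0.14 ± 0.73 log2 units between the genotypes (95% interval -1.67 to 1.40), and by -1.16 ± 0.52 without BDL_KO_2248 and BDL_KO_2359 (limma adjusted p = 0.306). The sham values rest on 4 to 30 fragments per library, and only 4 of 10 sham libraries reached 0.5 FPKM.

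Chac1 (chromosome 2, 119351229 to 119354381, plus strand) encodes an enzyme that degrades glutathione and is a target of ATF4. It measured 17.5 (BDL_KO_2248), 5.18 (BDL_KO_2359), 1.65, 1.19 and 1.04 FPKM in BDL_KO livers. The other groups lay between 1.51 and 2.95 FPKM in BDL_Wt, 0.342 and 2.40 FPKM in Sham_KO and 0.758 and 3.94 FPKM in Sham_Wt. The 2 libraries were again the highest of all 20. BDL_KO minus Sham_KO was 1.33 ± 0.55 log2 units (95% interval 0.17 to 2.49) and was not called (limma adjusted p = 0.0848, unadjusted p = 0.0263). Without the 2 libraries it was 0.33 ± 0.41 log2 units (limma adjusted p = 0.571). BDL_Wt minus Sham_Wt was 0.05 ± 0.55 log2 units (95% interval -1.10 to 1.21).

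Trib3 (chromosome 2, 152337422 to 152344032, minus strand), a pseudokinase induced by ATF4 and CHOP, overlapped in all groups. It lay between 1.48 and 5.12 FPKM in BDL_KO, 3.03 and 5.08 FPKM in BDL_Wt, 1.43 and 5.01 FPKM in Sham_KO and 2.89 and 4.43 FPKM in Sham_Wt. Both knockout groups spread more widely than both wild-type groups, with coefficients of variation of 47.2% in BDL_KO and 53.9% in Sham_KO, against 19.8% in BDL_Wt and 17.0% in Sham_Wt. In Sham_KO the highest value came from Sham_KO_2347, and the other libraries of that group lay between 1.43 and 2.45 FPKM. The largest of its 4 pairwise differences was Sham_KO minus Sham_Wt, -0.48 ± 0.27 log2 units (95% interval -1.06 to 0.09, limma adjusted p = 0.377). Without BDL_KO_2248 and BDL_KO_2359, BDL_KO minus BDL_Wt was -0.60 ± 0.29 log2 units, against -0.31 ± 0.27 with them (limma adjusted p = 0.254 and 0.542).

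The Chac1 and Asns promoters are shown because both genes carry the element also present in Atf3. They are again the 250 bases upstream of the RefSeq start (chr2:119350992-119351241, plus strand, and chr6:7693210-7693459, minus strand, RefSeq, GRCm38.p6), 5′ to 3′. Capitals mark the C/EBP-ATF element, 193 bases upstream in Chac1 and 23 bases upstream in Asns.
Chac1: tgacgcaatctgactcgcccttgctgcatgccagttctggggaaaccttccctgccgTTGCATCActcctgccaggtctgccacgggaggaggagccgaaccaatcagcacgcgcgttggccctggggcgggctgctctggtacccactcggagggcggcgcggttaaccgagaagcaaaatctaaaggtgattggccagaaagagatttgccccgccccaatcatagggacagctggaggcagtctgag
Asns: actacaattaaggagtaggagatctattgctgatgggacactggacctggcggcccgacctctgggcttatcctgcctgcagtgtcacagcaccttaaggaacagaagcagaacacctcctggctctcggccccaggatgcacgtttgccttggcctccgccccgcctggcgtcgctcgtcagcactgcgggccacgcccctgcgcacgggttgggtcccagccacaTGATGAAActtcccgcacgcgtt
Trib3 had this element 15 bases downstream of its start, so that 5 of the 10 windows held it. These are matches of letters, and binding was not measured.

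Read against all genes, the counts of called members were small. With ligation in knockout 2 of 10 members were called higher and 0 lower, where 12.3% of the 14059 tested genes were called higher and 12.9% lower. With ligation in wild type 2 were called higher and 0 lower, where 18.1% of all genes were called higher and 17.5% lower. By voom 1 and 2 members were called, and 3 and 2 had an unadjusted p under 0.05. The shares of members called higher were thus near the background. Of all calls with ligation, 48.8% were higher in knockout and 50.8% in wild type, and these splits became 75.9% and 82.0% with TPM and 57.5% and 70.9% with scaling to total fragments, under which Atf3 and Asns were called higher in each genotype too. The median difference of the members was 0.32 log2 units in knockout and 0.27 in wild type, against -0.01 and -0.02 over all tested genes, and in each genotype 8 of 10 estimates were above 0. In knockout without BDL_KO_2248 and BDL_KO_2359, 4 of 10 estimates were above 0, the median was -0.07 and 1 member was called. In that fit 2641 of the 14059 tested genes were called higher and 2558 lower.

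For the genotype, 0 of 10 members were called after sham surgery by limma, with 0 at an unadjusted p under 0.05 and 0 called by voom, where 1.31% of all genes were called higher and 1.66% lower in Sham_KO. After ligation 1 of 10 was called lower in BDL_KO, Atf3, where 3.46% of all genes were called higher and 5.37% lower. Of all genotype calls, 39.2% were higher after ligation and 44.0% after sham surgery, against 6.7% and 9.5% with TPM and 11.5% and 24.1% with scaling to total fragments. The member median after ligation was -0.15 log2 units, against 0.01 over all genes, with 6 of 10 estimates below 0. Without BDL_KO_2248 and BDL_KO_2359 all 10 estimates were below 0, with a median of -0.54 log2 units against -0.01 over all genes. Asns moved from 0.13 to -0.89 log2 units, Chac1 from 0.40 to -0.61, Atf4 from 0.16 to -0.32 and Herpud1 from 0.16 to -0.36. Dnajb9 moved from -0.24 to -0.75 (limma adjusted p = 0.0843), Xbp1 from -0.06 to -0.41 and Hspa5 from -0.26 to -0.48. Atf3 moved from -1.56 to -1.17, and Ddit3 stayed at -0.37. Of these 10 members, however, 0 were called by limma and 4 reached an unadjusted p under 0.05. In that fit 456 of the 14059 tested genes were called higher and 472 lower. For the difference between the ligation effects 0 of 10 members were called by limma, 1 had an unadjusted p under 0.05 and 0 were called by voom, where 0.156% of all genes were called higher and 0.22% lower. Of these few calls 41.5% were higher, against 57.1% with TPM and 38.1% with scaling to total fragments. The comparisons share groups, so these counts are not independent of each other.

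**Figure D3:**
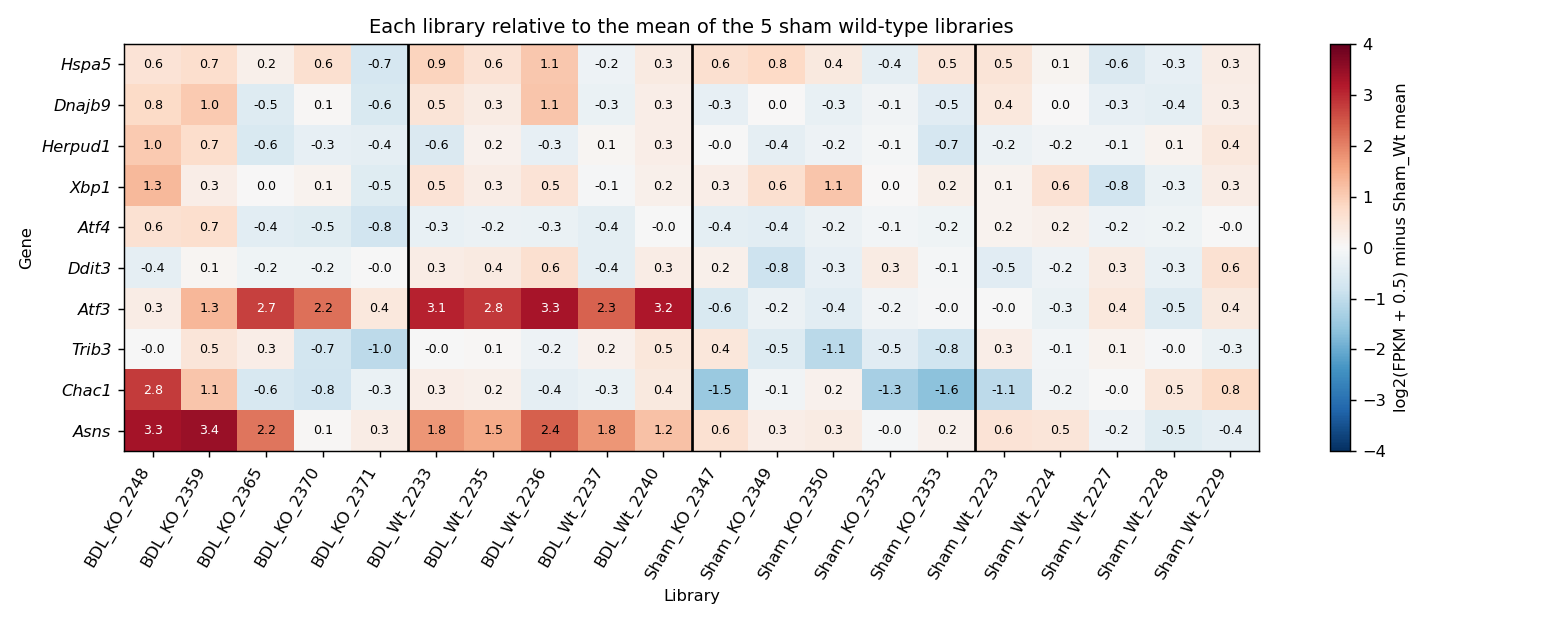
Each library (columns, by group) relative to the mean of the 5 Sham_Wt libraries, for the 10 genes (rows), as log2(FPKM + 0.5) minus that mean on a colour scale from -4 to 4. BDL_KO_2248 and BDL_KO_2359, at the left, are high in Asns, Chac1, Herpud1, Dnajb9 and Atf4, and BDL_KO_2365 and BDL_KO_2370 are high in Atf3.

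Within the ligated knockout group 6 of the 10 genes shared a pattern. BDL_KO_2248 and BDL_KO_2359 both exceeded the other 3 libraries in Atf4, Xbp1, Dnajb9, Herpud1, Chac1 and Asns, where 24.3% of all tested genes did so. In 0 members were both below the other 3, where 21.7% of all tested genes were. Hspa5, Ddit3, Trib3 and Atf3 did not separate the libraries in this way, and Atf3 had its highest values in BDL_KO_2365 and BDL_KO_2370. The hepatocyte markers had the same pattern, 11 of 12 being higher in both libraries, while 7 of 8 tested cholangiocyte markers, 9 of 9 stellate cell markers and 8 of 10 macrophage markers were lower in both. Of pathway lists, 15 of 18 genes of ER-associated degradation, 8 of 13 of the eIF2 kinases and regulators, 8 of 12 tRNA synthetases, 7 of 19 ER chaperones and 2 of 9 ER stress sensors were higher in both libraries. Of 12 ATF4-responsive amino acid genes 4 were higher and 3 lower in both, and of 12 stress-induced regulators 5 were higher and 2 lower. These libraries were picked out for standing apart in the same data, so these counts describe them and carry no test.

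The ratio of Atf3 to Atf4 differed widely among the ligated knockout libraries. It was 0.252 in BDL_KO_2365 and 0.177 in BDL_KO_2370 but 0.0494, 0.0395 and 0.0160 in the other 3 BDL_KO libraries. It was 0.186 to 0.344 in BDL_Wt, against 0.0103 to 0.01996 in Sham_KO and 0.0103 to 0.0325 in Sham_Wt. In BDL_KO_2248 the ratio thus lay within the sham range. The ratio of Asns to Atf4 was 0.125, 0.118 and 0.1001 in BDL_KO_2359, BDL_KO_2248 and BDL_KO_2365 and 0.0203 and 0.0120 in the other 2, against 0.0317 to 0.108 in BDL_Wt. The 3 libraries high in Asns relative to Atf4 therefore included BDL_KO_2365, which was high in Atf3.

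After each group mean was subtracted, the correlations of the members over the 20 libraries are given as a description without a test. Pearson's r was 0.78 for Atf4 and Asns, 0.75 for Herpud1 and Chac1, 0.74 for Atf4 and Dnajb9 and 0.72 for Hspa5 and Dnajb9. Atf3 had r of -0.51 with Herpud1, -0.46 with Chac1 and -0.22 with Atf4, and its highest value with any member was 0.29, with Ddit3. These values share libraries and depth, and they include BDL_KO_2248 and BDL_KO_2359.

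By the same measure, the genes most like Hspa5 among those with a mean of at least 1 FPKM were Hyou1, an ER chaperone (r = 0.975), Manf, an ER stress-induced secreted protein (r = 0.944), and Uso1, a vesicle tethering protein (r = 0.940). Those most like Atf3 were Vasp (r = 0.889), Tmem51 (r = 0.858) and 6430548M08Rik (r = 0.831), and those most like Asns were Triap1 (r = 0.901), Zdhhc12 (r = 0.891) and Gm15417 (r = 0.888). Ddit3 was most like Stat2 (r = 0.855), Pygo2 (r = 0.851) and Ehbp1 (r = 0.777). Trib3 was most like D8Ertd738e (r = 0.884), Irf3 (r = 0.884) and Uqcr11 (r = 0.877).

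The wider pathway was read from 7 lists with 94 tested genes besides the members, and with ligation in wild type 24 of them rose and 10 fell. These are 25.5% and 10.6% of the lists, where 18.1% of all tested genes were called higher and 17.5% lower. In the same comparison 8 of 8 tested cholangiocyte markers and 8 of 10 macrophage markers rose and 6 of 12 hepatocyte markers fell, and their part in the list results was not tested. Among 9 ER stress sensors and transducers 3 rose and 1 fell. Creb3l2, an ER-anchored bZIP factor, averaged 8.65 ± 1.72 FPKM in BDL_Wt and 3.48 ± 1.07 FPKM in Sham_Wt (SD, n = 5 each) and rose by 1.22 ± 0.17 log2 units (limma adjusted p = 3.2e-05). Eif2ak3, which encodes PERK, rose by 0.84 ± 0.20 and Mbtps2, the site-2 protease that releases ATF6, by 0.37 ± 0.11. Creb3l3, a liver ER-anchored factor of the acute phase and lipid response, fell by 0.39 ± 0.11 log2 units, a direction that turned (0.02) under quantile normalization. Ern1, which encodes the sensor IRE1, had a difference of -0.22 ± 0.14 log2 units (limma adjusted p = 0.253).

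Of 13 eIF2 kinases, eIF2B subunits and eIF2 phosphatase regulators, 4 rose and 2 fell in ligated wild-type livers. Eif2ak2, the interferon-inducible kinase PKR, rose by 0.89 ± 0.18 log2 units, Impact, an inhibitor of GCN2 activation, by 0.54 ± 0.13 and Eif2s1, the eIF2 alpha subunit, by 0.36 ± 0.09. Ppp1r15a, the stress-induced phosphatase subunit GADD34 that dephosphorylates eIF2, rose by 0.38 ± 0.12. Eif2ak1, the heme-regulated kinase HRI, and the eIF2B subunit gene Eif2b1 fell by 0.34 ± 0.07 and 0.33 ± 0.10.

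Few chaperone and degradation genes were called. Of 19 ER chaperones and folding enzymes, Dnajc10, an ER disulfide reductase, rose by 0.87 ± 0.15 log2 units and Ero1l, an ER oxidase, by 0.59 ± 0.13, while Sil1, a nucleotide exchange factor of BiP, fell by 0.43 ± 0.14. Of 18 genes of ER-associated degradation, Edem2 and Ube2j1 rose by 0.48 ± 0.15 and 0.29 ± 0.11, and Derl2 and Vcp fell by 0.40 ± 0.12 and 0.30 ± 0.10, the last of which turned to 0.02 with TPM. The calls of Ube2j1, Sil1 and Vcp were lost under 9, 6 and 5 of 33 settings. The list medians were 0.13 and -0.11 log2 units, against -0.02 over all genes.

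Of 12 tested genes of ATF4-responsive amino acid synthesis and transport, 5 rose in ligated wild-type livers. Aldh18a1, the first enzyme of proline synthesis, averaged 1.89 ± 0.235 FPKM in BDL_Wt and 0.683 ± 0.132 FPKM in Sham_Wt (SD, n = 5 each) and rose by 1.02 ± 0.17 log2 units (limma adjusted p = 0.000147). The glycine transporter gene Slc6a9 rose by 0.73 ± 0.16, Gpt2 by 0.54 ± 0.18, Mthfd2 by 0.50 ± 0.19 and Psat1 by 0.49 ± 0.16, and the Mthfd2 call was lost under 18 of 32 other settings. Of 12 cytosolic tRNA synthetases 3 rose and 3 fell, Gars by 0.65 ± 0.09, Wars by 0.55 ± 0.11 and Lars by 0.39 ± 0.08 on one side and Tars by 0.92 ± 0.12, Cars by 0.46 ± 0.15 and Aars by 0.39 ± 0.13 on the other. The Aars call was lost under 7 and the Cars call under 4 of 33 settings.

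The list of stress-induced regulators and secreted factors had the largest share of genes called higher, with 6 of 12 tested genes higher, 1 lower and a median of 0.67 log2 units. Gdf15, a secreted stress hormone, measured 32.9, 21.2, 21.1, 15.2 and 4.71 FPKM in BDL_Wt and 5.77, 3.84, 3.48, 3.32 and 1.01 FPKM in Sham_Wt livers, a rise of 2.20 ± 0.59 log2 units (limma adjusted p = 0.00684). Ddit4, an inhibitor of mTORC1, rose by 2.08 ± 0.55, the death receptor gene Tnfrsf10b by 1.51 ± 0.25, the chromatin-associated factor gene Nupr1 by 1.03 ± 0.21 and Sesn2 by 0.61 ± 0.19. Ppp1r15a is also on this list, and the bZIP factor gene Atf5 fell by 0.96 ± 0.28. All 24 genes that rose were also called higher with TPM, but of the 10 that fell only Tars and Atf5 were also called lower. TPM moved the median of all genes up by 0.29 log2 units here, with 82.0% of all calls higher. That shift by itself keeps rises and removes falls, so it is no check on either.

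**Figure D4:**
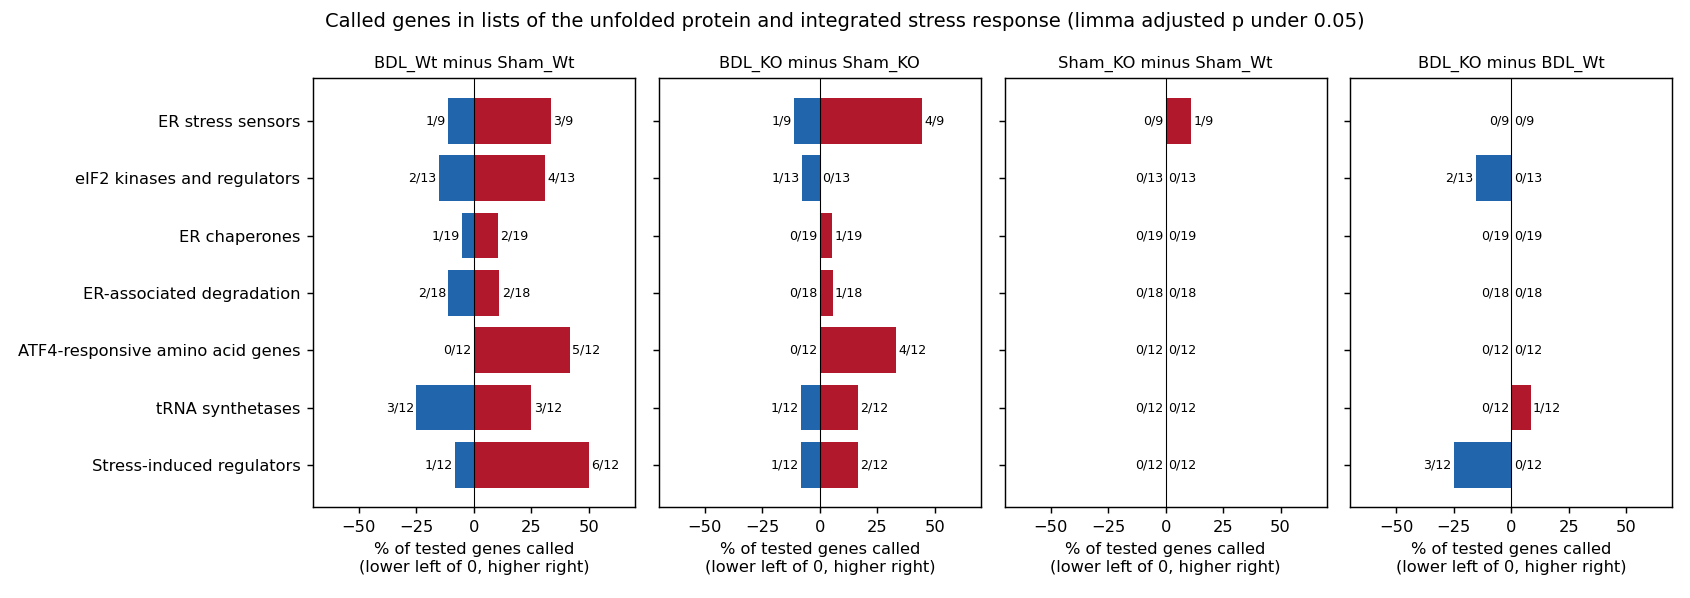
Percent of tested genes called lower (left of 0) and higher (right of 0) in the 7 lists (rows) for the 4 pairwise comparisons, with the counts at the bars. Stress-induced regulators (6 of 12 higher) and ATF4-responsive amino acid genes (5 of 12 higher) have the largest shares called higher with ligation in wild type, and 3 of 12 stress-induced regulators are lower in BDL_KO than in BDL_Wt.

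With ligation in knockout 14 of the 94 genes rose and 4 fell, 14.9% and 4.3% of the lists, where 12.3% of all tested genes were called higher and 12.9% lower. Creb3l2 rose by 1.13 ± 0.17 log2 units, Eif2ak3 by 0.84 ± 0.20, Mbtps2 by 0.38 ± 0.11 and Atf6 by 0.38 ± 0.13, while Creb3l3 fell by 0.98 ± 0.11. Creb3l3 lay between 58.6 and 84.4 FPKM in BDL_KO and between 115.5 and 155 FPKM in Sham_KO, with no overlap. Dnajc10 rose by 0.78 ± 0.15 and Edem2 by 0.46 ± 0.15, and of the amino acid genes Aldh18a1 rose by 1.10 ± 0.17, Psat1 by 0.60 ± 0.16, Slc7a5 by 0.51 ± 0.11 and Slc6a9 by 0.47 ± 0.16. Gars and Lars rose by 0.45 ± 0.09 and 0.35 ± 0.08 and Tars fell by 0.72 ± 0.12, and Tnfrsf10b and Bcl2l11 rose by 0.81 ± 0.25 and 0.76 ± 0.22. Eif2ak1 and Cebpg fell by 0.21 ± 0.07 and 0.34 ± 0.10. The calls of Slc6a9, Edem2 and Eif2ak1 were lost under 13, 8 and 8 of 33 settings, and that of Tnfrsf10b under 5 of 32. Without BDL_KO_2248 and BDL_KO_2359, 11 of the 14 and 4 of the 4 were called in the same direction, Atf6, Edem2 and Slc6a9 being the 3 that were not. A further 3 genes were then called higher, Eif2ak4, Mthfd2 and Sesn2, and 6 lower, Eif2b1, Eif2b4, Ppp1r15b, Syvn1, Ufd1 and Atf5. This gave 14 higher and 10 lower of the 94, where 2641 of the 14059 tested genes were called higher and 2558 lower. Atf5 was then at -1.28 log2 units (limma adjusted p = 3.51e-05), against -0.76 ± 0.28 with the 2 libraries (limma adjusted p = 0.0564). Gdf15 differed by 0.03 ± 0.59 log2 units in knockout (limma adjusted p = 0.976; 0.82 without the 2 libraries), and the difference of its effects, -2.17 ± 0.83, was not called (limma adjusted p = 0.267).

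Between ligated genotypes 4 of the 94 genes were lower and 1 higher in BDL_KO, 4.3% and 1.1% of the lists, where 5.37% of all tested genes were called lower and 3.46% higher. Eif2ak2 measured 4.91, 3.70, 3.09, 2.94 and 2.90 FPKM in BDL_KO and 13.8, 12.0, 10.8, 9.19 and 5.88 FPKM in BDL_Wt livers. The groups did not overlap, and the difference was -1.41 ± 0.18 log2 units (limma adjusted p = 6.16e-05) and was called under all 33 other settings. Gdf15 averaged 5.58 ± 5.38 FPKM in BDL_KO and 19.0 ± 10.3 FPKM in BDL_Wt (SD, n = 5 each), a difference of -1.93 ± 0.59 log2 units (limma adjusted p = 0.0474), but this call was lost under 22 of 33 settings, among them without the 2 libraries (-1.14, limma adjusted p = 0.287). Nupr1 (-0.69 ± 0.21), Ppp1r15a (-0.39 ± 0.12) and Tars (0.44 ± 0.12) lost their calls under 22, 11 and 12 of 33 settings. After sham surgery 1 of the 94 was called, Creb3l3, which was 0.42 ± 0.11 log2 units higher in Sham_KO (limma adjusted p = 0.0484), and 21 of 33 settings did not call it. For the difference of the ligation effects 0 of the 94 were called by limma, 8 had an unadjusted p under 0.05 and 0 were called by voom. Creb3l3 came nearest, at -0.59 ± 0.16 log2 units (limma adjusted p = 0.13), followed by Eif2ak2 at -0.95 ± 0.26 (limma adjusted p = 0.132). The Creb3l3 difference was called under 4 of 32 other settings, which were quantile normalization, array weights, scaling to total fragments and leaving out BDL_KO_2248 and BDL_KO_2359 (-0.71, limma adjusted p = 0.0374). The Eif2ak2 difference was called under 2, without BDL_Wt_2237 and without BDL_KO_2370.

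Where a list had fewer than 2 calls between the genotypes, abundant genes of it are given, and none of those named here was called. After ligation P4hb, an ER protein disulfide isomerase, averaged 643 ± 131 FPKM in BDL_KO and 517 ± 28.4 FPKM in BDL_Wt (SD, n = 5 each), a difference of 0.29 ± 0.15 log2 units (limma adjusted p = 0.221). The ER chaperone gene Calr differed by -0.07 ± 0.21, and the degradation factor gene Os9 by 0.23 ± 0.15. Cth, which makes cysteine, averaged 310.0 ± 209 FPKM in BDL_KO and 171 ± 53.7 FPKM in BDL_Wt, and the aspartate aminotransferase gene Got1 averaged 171 ± 118 FPKM in BDL_KO and 78.8 ± 35.6 FPKM in BDL_Wt (SD, n = 5 each). Their differences of 0.72 ± 0.30 and 0.97 ± 0.40 log2 units had limma adjusted p = 0.149 and 0.143. Without BDL_KO_2248 and BDL_KO_2359 the differences were 0.30 for Cth, 0.49 for Got1, 0.10 for P4hb, -0.02 for Os9 and -0.27 for Calr. For Creb3 (-0.16 ± 0.11) and Nars (-0.03 ± 0.10), limma adjusted p was 0.381 and 0.905. After sham surgery Ppp1r15b, Eif2b5 and Cebpb differed by 0.19 ± 0.14, 0.16 ± 0.11 and -0.08 ± 0.25 log2 units, also without a call.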

How the data were processed

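Whole-liver polyadenylated RNA was sequenced in 20 libraries, 5 in each of 4 groups, taken from the library titles. The authors deposited 1 table of FPKM values per gene for all 20 libraries, with 54532 entries, of which 105 repeat a gene name. The submitters' processing notes name DESeq2 1.20.0, featureCounts 1.5.0-p3, HISAT2 2.0.5, fastp, CASAVA 1.8 and the builds GRCm38 and mm10, with no role given. The annotation release and the use of strand are not given in the sources used here. The design text also names Abcb4-deficient mice, which are not analysed here.

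FPKM are not counts, so the test was limma 3.58.1 (R 4.3.3) on log2(FPKM + 0.5). It covered the 14059 genes that reached 0.5 FPKM in 5 or more libraries, in 1 fit of all 4 groups with trended and robust moderation and Benjamini-Hochberg adjustment over all genes at 0.05. In each library, 98.2% to 98.5% of low values were whole numbers of fragments within 0.02, given GENCODE M21 exon lengths. Depth was recovered in this way as 14948000 to 20903000 assigned fragments, and voom on the recovered fragments (13959 genes) was an alternative. Summed FPKM per library ran from 315016 to 547332, so TPM and FPKM scale libraries differently.

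Members and lists were chosen with earlier results of these data known. All 10 members are named. Of each list, up to 4 called genes per comparison with the largest change are named, or its 2 most abundant genes where fewer than 2 were called. 1 gene that this rule picks is not reported here. Ern1, Eif2ak1, Eif2b1, Atf6, Lars, Psat1, Aars, Sesn2, Atf5, Mthfd2, Eif2ak4, Eif2b4, Ppp1r15b, Syvn1 and Ufd1 are outside that rule in at least 1 comparison and were picked after their values were seen. Likeness was Pearson's r of log2(FPKM + 0.5) after subtracting group means. Promoters and motifs were read from RefSeq (GRCm38.p6) for all 10 members. The 33 other settings covered the pseudocount (0.1 and 1 FPKM), the filter, scaling, moderation, weights, a covariate for libraries with Y-linked expression (2 of 5 in BDL_KO, 3 of 5 in BDL_Wt, 3 of 5 in Sham_KO and 2 of 5 in Sham_Wt), the samples in the fit and each library left out. Scaling to total fragments was added after seeing the data.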

Additional observations from a re-analysis of the deposited data

How the results depend on the processing

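Under 33 other settings, the number of members called for ligation in wild type was 2, except for 4 with TPM, 4 with array weights, and 3 with quantile normalization and with scaling to total fragments. TPM and array weights added Hspa5 and Dnajb9. For ligation in knockout 2 members were called, but 3 with TPM and 1 with no filter, with quantile normalization, with only the groups compared in the fit, with array weights, with voom and without BDL_KO_2248 and BDL_KO_2359. Leaving out 1 library at a time gave between 1 and 2. For the genotype after ligation 1 member was called, but 0 without those 2 libraries and 0 with only the groups compared in the fit. The member that TPM added for ligation in knockout was Chac1 (1.68). No called member changed direction under any of these settings. The cause of these changes was not tested. TPM moved the median of all genes by 0.16 log2 units for ligation in knockout and 0.29 in wild type, by -0.27 for the genotype after ligation, by -0.13 after sham surgery and by -0.13 for the difference of effects. Depth limits Asns, Atf3 and Chac1 most, with as few as 4, 10 and 9 fragments in a library. No paired analysis was possible because every library number occurs only once in the titles.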

Other observations

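Among the stress-induced regulators, Ddit4 and Atf5 were also uneven within the ligated knockout group, and both were picked after their values were seen. Ddit4, an inhibitor of mTORC1, measured 89.1 FPKM in BDL_KO_2248 and 33.2 FPKM in BDL_KO_2359, and 7.46 to 11.3 FPKM in the other 3 BDL_KO libraries, against 11.0 to 17.9 FPKM in BDL_Wt. Sham_KO livers had 2.15 to 12.0 FPKM and Sham_Wt livers 1.45 to 4.96 FPKM. Atf5 measured 268.5 FPKM in BDL_KO_2359 and 121 FPKM in BDL_KO_2248, and 54.4 to 89.8 FPKM in the other 3, against 65.7 to 91.1 FPKM in BDL_Wt. Sham_KO livers had 145 to 206 FPKM and Sham_Wt livers 123 to 174 FPKM.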
